A study of Mus musculus with 6 samples.

Results

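The enzymes that break down phenylalanine and tyrosine were described here over 7 genes, Pcbd1, Qdpr, Tat, Hpd, Hgd, Gstz1 and Fah. A probe set, the group of array probes that reads 1 transcript, was taken as theirs where the array annotation gave it 1 of these symbols and no other. All 7 genes had such a probe set, 9 in total of the 45037 on the array, because Qdpr and Hgd had 2 each. Liver RNA came from male FRG mice of 12 weeks, 1 Affymetrix array per mouse, to study what a short interruption of NTBC (nitisinone) therapy does to the liver. The FRG-7dNTBC group (3 mice) had been taken off the drug at 11 weeks and was sampled after 7 days, and the FRG+NTBC group (3 mice) stayed on 16 mg/L NTBC in drinking water. Both groups carried knockouts of Fah, Rag2 and Il2rg on a C57Bl/6J background, were raised on the drug in water with 3% dextrose and ate a chow low in tyrosine and phenylalanine. No wild type liver was on the arrays, so both groups lack a working last step of the pathway.

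The pathway runs mainly in hepatocytes. Phenylalanine is hydroxylated to tyrosine with tetrahydrobiopterin as cofactor, which Pcbd1 (pterin carbinolamine dehydratase) and Qdpr (dihydropteridine reductase) return to its active form after each turn. Tat (tyrosine aminotransferase) turns tyrosine into hydroxyphenylpyruvate, Hpd (hydroxyphenylpyruvate dioxygenase) makes homogentisate from it, and Hgd (homogentisate dioxygenase) opens the ring to give maleylacetoacetate. Gstz1 (maleylacetoacetate isomerase) forms fumarylacetoacetate, which Fah (fumarylacetoacetate hydrolase) splits into fumarate and acetoacetate. Loss of FAH in people causes hereditary tyrosinemia type 1, and NTBC treats it by blocking the HPD protein, so that the toxic products beyond that step are not formed. The arrays measured transcripts and not the activity of any of these enzymes.

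Transcripts of 6 of the 7 enzymes were lower in FRG-7dNTBC livers than in FRG+NTBC livers, and none was higher. The fall was deepest for Tat, at 3.79-fold, and lay between 1.79- and 2.35-fold for Hpd, Fah, Gstz1 and both probe sets of Hgd. It was 1.43-fold for Pcbd1, and Qdpr did not pass the test at either of its probe sets. By limma, with p-values adjusted over all 45037 probe sets and a limit of 0.05, 7 of the 9 probe sets were lower, where 13.9% of all probe sets on the array were lower and 14.0% were higher. At least 2-fold lower were 5 of the 9, against 5.12% of all probe sets. In 8 of the 9, all 3 FRG-7dNTBC values lay below all 3 FRG+NTBC values, as did 25.5% of all probe sets. With the arrays scaled to one 75th percentile, 9669 probe sets of all were lower and 5366 higher (6262 lower and 6284 higher without it), and 7 of the 9 were again lower. With ordinary variances per probe set the number was 4 of the 9, Tat, Fah and both of Hgd, where 3336 of all 45037 probe sets were lower. The median log2 fold change was -1.02 over the 9 probe sets and -0.08 over all.

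The plot of each enzyme by mouse shows these values probe set by probe set.

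**Figure D1:**
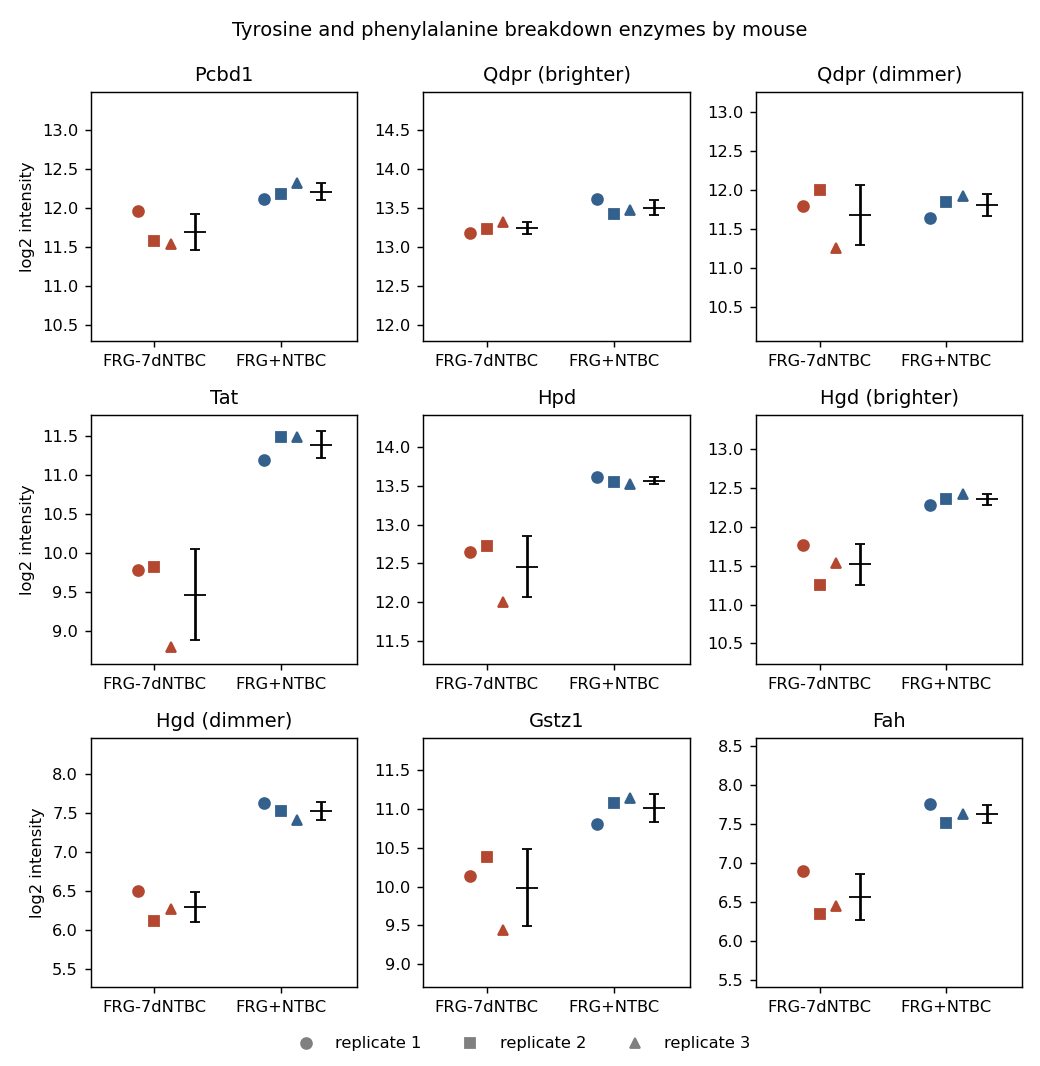
Log2 intensity of the 9 probe sets of the 7 enzymes in each mouse, with FRG-7dNTBC livers on the left and FRG+NTBC livers on the right of each panel. Symbols are mice, the black bar is the group mean with its SD (n = 3), and every panel spans the same number of log2 units. The groups overlap only at the dimmer probe set of Qdpr.

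Promoter sequence is shown for 3 of the genes, the most changed one (Tat), the drug target (Hpd) and the deleted gene (Fah). Each run holds the 250 bases before the transcription start in RefSeq (build GRCm38.p6), and capitals mark a match to a motif searched on both strands. The motifs reported were those of the HNF4 type (CAAAGNNCA), the antioxidant response element (TGACNNNGC), the TATA box (TATAAA) and the GC box (GGGCGG), with N for any base.
Tat, chr8:109990186-109990435, plus strand: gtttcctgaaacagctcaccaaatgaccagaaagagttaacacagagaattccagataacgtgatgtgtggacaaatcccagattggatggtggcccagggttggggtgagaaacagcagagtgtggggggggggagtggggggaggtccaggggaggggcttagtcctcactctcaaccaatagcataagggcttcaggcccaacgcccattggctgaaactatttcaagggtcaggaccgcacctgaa
Hpd, chr5:123182724-123182973, minus strand: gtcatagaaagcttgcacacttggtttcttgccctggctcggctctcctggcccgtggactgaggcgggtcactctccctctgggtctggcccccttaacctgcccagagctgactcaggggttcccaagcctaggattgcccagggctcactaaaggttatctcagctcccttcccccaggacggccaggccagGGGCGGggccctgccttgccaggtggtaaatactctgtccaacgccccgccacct
Fah, chr7:84605943-84606192, minus strand: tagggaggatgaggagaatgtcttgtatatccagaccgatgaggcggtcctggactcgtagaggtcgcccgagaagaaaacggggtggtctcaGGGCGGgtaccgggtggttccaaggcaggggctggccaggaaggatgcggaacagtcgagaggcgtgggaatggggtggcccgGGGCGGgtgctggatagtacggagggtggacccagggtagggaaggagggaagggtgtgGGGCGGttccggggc

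The Tat window held none of these 4 motifs. The Hpd window held 1 GC box, from 55 to 50 bases before the start, and the Fah window held 3, the nearest from 15 to 10 bases before the start. Over all 7 genes, GC boxes were found in 4 (Qdpr, Hpd, Gstz1 and Fah), TATA matches in 2 (Pcbd1 and Hgd), and the HNF4 type and antioxidant motifs in 0. Among 32841 mouse promoters of the same length, 32.7% held a GC box, 12.4% a TATA match, 5.49% the HNF4 type motif and 10.2% the antioxidant motif. A match describes letters in the window and does not show that a factor binds there.

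Of the 2 enzymes that restore the cofactor, Pcbd1 fell and Qdpr did not pass. Pcbd1 intensity was 3984, 3061 and 2978 in the FRG-7dNTBC livers, against 4451, 4640.3 and 5149 in the FRG+NTBC livers. The groups did not overlap, and FRG-7dNTBC replicate 1 came closest to the FRG+NTBC livers. The means were 3341 ± 558 in FRG-7dNTBC and 4747 ± 361 in FRG+NTBC livers (SD, n = 3 each), a log2 fold change of -0.52 (SE 0.15, 95% interval -0.86 to -0.17, limma adjusted p = 0.0365). This call was lost on leaving out any 1 mouse except FRG-7dNTBC replicate 1, with limma adjusted p-values of 0.0634 to 0.108, and also with ordinary variances (0.0986), with array weights (0.0653) or with the replicate number as a block (0.0714).

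The brighter Qdpr probe set read 9217, 9608 and 10226 in FRG-7dNTBC livers and 12503, 10960.3 and 11347 in FRG+NTBC livers. The groups were apart but close, and the spread among the FRG+NTBC livers was wider than the gap between the groups. The log2 fold change was -0.26 (SE 0.12, 95% interval -0.54 to 0.02, limma adjusted p = 0.15), so a fall of up to 1.45-fold and no change both lie within the interval. The dimmer Qdpr probe set read 3566, 4096 and 2452 in FRG-7dNTBC livers, against 3214, 3691.5 and 3902 in FRG+NTBC livers. Here the groups overlapped, with the highest and the lowest of the 6 values both in FRG-7dNTBC livers, and the log2 fold change was -0.12 (SE 0.20, limma adjusted p = 0.686). Without FRG-7dNTBC replicate 3, the low one, it was 0.090 (limma adjusted p = 0.716).

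Tat, which opens the breakdown of tyrosine and is a classic glucocorticoid-induced gene of the liver, changed most. Its intensity was 879, 904 and 443 in FRG-7dNTBC livers, against 2336, 2856 and 2876 in FRG+NTBC livers. All FRG-7dNTBC livers were far below the lowest FRG+NTBC liver, and replicate 3 stood well below the others. The group means were 742 ± 259 in FRG-7dNTBC and 2690 ± 306 in FRG+NTBC livers (SD, n = 3 each). The log2 fold change was -1.92 (SE 0.27, 95% interval -2.55 to -1.30, limma adjusted p = 0.00151), which left 26.4% of the FRG+NTBC level. Without FRG-7dNTBC replicate 3 it was -1.59 and still passed (limma adjusted p = 0.000324).

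Hpd, whose protein NTBC inhibits, was lower in the mice without the drug. It read 6427, 6747 and 4124.5 in FRG-7dNTBC livers and 12503, 11994 and 11747 in FRG+NTBC livers. The FRG+NTBC livers lay close together, and FRG-7dNTBC replicate 3 was again the lowest. The group means were 5766 ± 1431 off the drug (FRG-7dNTBC) and 12081 ± 386 on it (FRG+NTBC; SD, n = 3 each). The log2 fold change was -1.10 (SE 0.19, 95% interval -1.55 to -0.65). The 2.14-fold fall passed (limma adjusted p = 0.00428), and it also passed without FRG-7dNTBC replicate 3, at a log2 fold change of -0.88 (limma adjusted p = 0.00229). With ordinary variances per probe set, its adjusted p in limma was 0.0542.

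Hgd was read by 2 probe sets, and both were lower. The brighter one gave 3492, 2435.5 and 2957 in FRG-7dNTBC livers, against 4973, 5257 and 5480.1 in FRG+NTBC livers. The dimmer one gave 90.5, 69.6 and 77.2 in FRG-7dNTBC livers, against 199.5, 184.8 and 170.1 in FRG+NTBC livers. At both, FRG-7dNTBC replicate 1 was the highest and replicate 2 the lowest of its group, and the groups stayed apart. The log2 fold change was -0.84 (SE 0.15, 95% interval -1.19 to -0.48, limma adjusted p = 0.00533) at the brighter and -1.23 (SE 0.14, 95% interval -1.56 to -0.90, limma adjusted p = 0.000635) at the dimmer probe set. Averaged over both, the log2 fold change of Hgd was -1.03 (limma adjusted p = 0.000817). That p-value comes from a fit of genes averaged over their probe sets and is adjusted over 18193 genes.

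Gstz1 intensity was 1128, 1333 and 695 in FRG-7dNTBC livers and 1783, 2149.8 and 2257 in FRG+NTBC livers. FRG-7dNTBC replicate 3 was the lowest once more, and the groups did not overlap. The means were 1052 ± 326 in FRG-7dNTBC and 2063 ± 249 in FRG+NTBC livers (SD, n = 3 each), a log2 fold change of -1.02 (SE 0.24, 95% interval -1.57 to -0.47, limma adjusted p = 0.0152). The call was lost without FRG+NTBC replicate 2 (0.0611), without FRG+NTBC replicate 3 (0.0564) and with ordinary variances (0.104), all as limma adjusted p-values.

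Fah gave a signal in both groups although both carry its knockout. It read 118.6, 81.0 and 86.8 in FRG-7dNTBC livers, against 215, 182 and 197 in FRG+NTBC livers. Every FRG-7dNTBC value was below every FRG+NTBC value, with replicate 1 the highest of the mice off the drug. The log2 fold change was -1.07 (SE 0.17, 95% interval -1.46 to -0.68), a 2.10-fold fall that passed (limma adjusted p = 0.00258). Where the probes lie relative to the disrupted part of the gene was not examined, so the signal neither checks the labels nor shows a working transcript. Rag2, knocked out in both groups as well, differed by 0.01 in log2 (limma adjusted p = 0.97), and Il2rg was not analysed here. The Rag2 signal averaged 20.1 in each group, below the lowest array median of 33.1. A signal this dim does not tell whether Rag2 RNA differed.

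An exact two-sided permutation test of a single probe set with 3 mice against 3 cannot go below 0.1. It gave 0.1 for the 8 probe sets without overlap and 0.8 for the dimmer one of Qdpr. The plot of fold changes sets the 9 probe sets in pathway order.

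**Figure D2:**
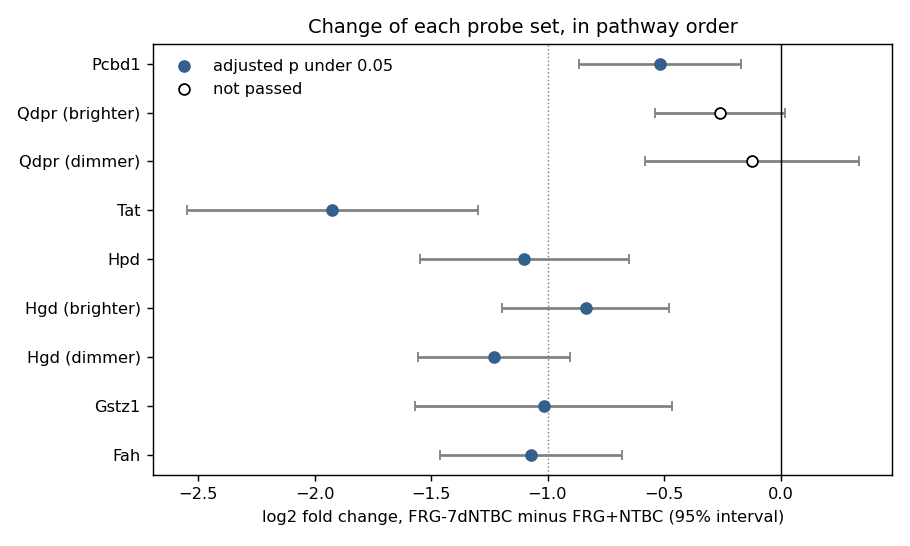
Log2 difference of FRG-7dNTBC from FRG+NTBC livers at each probe set, with its 95% interval from limma (n = 3 mice per group), from the cofactor enzymes at the top to Fah at the bottom. Filled points passed at an adjusted p under 0.05, open points did not, and the dotted line marks a 2-fold fall. Tat lies farthest left at -1.92 and both Qdpr points lie nearest 0.

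The size of the fall did not follow the order of the steps. Tat came first, followed by the dimmer probe set of Hgd, Hpd, Fah, Gstz1, the brighter probe set of Hgd, and Pcbd1. The intervals of neighbours in this order overlapped. To describe how unequally 2 enzymes changed, the log2 difference between their brightest probe sets was taken within each mouse and compared between the groups for all 21 pairs. The change of Tat minus that of Hpd was -0.82 in log2, and the difference of Tat from Hpd, set to a mean of 0 in FRG+NTBC livers, was -1.05 to -0.70 in FRG-7dNTBC livers and -0.25 to 0.14 in FRG+NTBC livers. Relative to Gstz1 and to Hgd, the difference of changes was -0.91 and -1.09, while Tat and Fah overlapped between groups. Hpd and Fah differed in change by -0.03, with overlap. No pair passed, since the smallest exact permutation p of 0.1 became 0.162 after Benjamini-Hochberg adjustment over the 21 pairs.

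The enzymes also differed in which mice were high or low. FRG-7dNTBC replicate 3 was the lowest of its group in 5 of the 9 probe sets, those of Pcbd1, Tat, Hpd, Gstz1 and the dimmer one of Qdpr. It lay below its group's mean by 0.67 in log2 for Tat, 0.55 for Gstz1 and 0.45 for Hpd. At Hgd and Fah the order was another, with replicate 1 above the group mean by 0.20 to 0.33 and replicate 2 below it. Pcbd1 shared part of each order, with replicate 1 above its group's mean by 0.27 and replicates 2 and 3 below it by 0.11 and 0.15. At the brighter Qdpr probe set replicate 3 was the highest, 0.08 above the group mean. Among FRG+NTBC livers the spread was smaller in 8 of the 9 probe sets, the exception being the brighter one of Qdpr (SD of 0.075 in log2 in FRG-7dNTBC and 0.098 in FRG+NTBC livers), and the widest deviation was -0.20 for Tat and Gstz1 in replicate 1. The plot of deviations shows these orders.

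**Figure D3:**
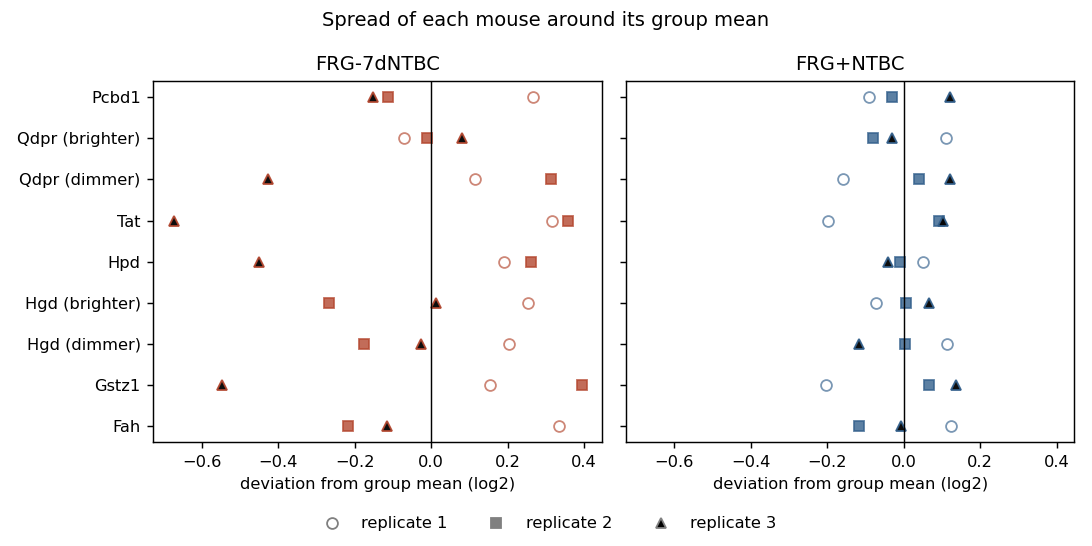
Deviation of each mouse from its own group's mean log2 intensity, for FRG-7dNTBC livers (left panel) and FRG+NTBC livers (right panel), with 1 symbol per mouse. FRG-7dNTBC replicate 3 reaches -0.67 at Tat, and the widest FRG+NTBC deviation is -0.20.

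Marker genes of the liver cell types were summed in the same mice. Markers that passed stand beside 14.0% of all probe sets higher and 13.9% lower. Over 7 of 8 hepatocyte markers, the summed intensity was 108482 to 117763 in FRG-7dNTBC livers and 118763 to 122263 in FRG+NTBC livers. Among them only Cps1, a urea cycle enzyme, passed (log2 fold change -0.73, limma adjusted p = 0.0103, or 0.0601 with ordinary variances), and Alb, the gene of albumin, differed by 0.08, or by -0.0467 after scaling. Alb, Ttr and Apoa1, the last 2 named after their values were seen, made up most of the hepatocyte sum. They averaged 22247 to 27306 in FRG-7dNTBC and 23558 to 26130 in FRG+NTBC livers, close to the highest value of all probe sets, 29532. Whether a fall can show at such values was not tested. The sum over all 7 macrophage and neutrophil markers was 1394 to 4046 in FRG-7dNTBC and 1615 to 2322 in FRG+NTBC livers. The lowest hepatocyte sum and the highest macrophage sum both belonged to FRG-7dNTBC replicate 3, the mouse with the lowest Tat, Hpd and Gstz1. Within that group, Apoa1, Cps1, Fgb, Ahsg and Serpinc1 were lowest in replicate 3, while Alb (27939) and Ttr (27364) were highest there. The widest gap was at Fgb, which read 7804 in replicate 3 against 11911 and 13034 in replicates 1 and 2. Fgb, Ahsg and Serpinc1 were picked for mention with these readings already known. The lowest macrophage sum belonged to FRG-7dNTBC replicate 2, the mouse with the lowest Fah and the lowest Hgd at both probe sets. Of the macrophage and neutrophil markers only Cd68 passed, at a log2 fold change of 2.23 (limma adjusted p = 0.000126), while Adgre1 differed by -0.08. Cd68 read 154, 124.5 and 107 in FRG-7dNTBC livers, lowest in replicate 3, where the other markers of this list were highest of the group. Csf1r (1978) and Lyz2 (1235) made up most of the sum of replicate 3, and neither passed. Both were named after their values were seen.

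Sums over all 6 stellate cell markers were 624 to 1577 in FRG-7dNTBC and 715 to 1010 in FRG+NTBC livers, with Lrat higher by 1.14 in log2, a call lost without FRG+NTBC replicate 3 and with ordinary variances. Sums over all 5 endothelial markers were 1018 to 1249 in FRG-7dNTBC and 659 to 1017 in FRG+NTBC livers, with Lyve1 higher by 1.78 and Pecam1 at 0.48, which passed only without FRG-7dNTBC replicate 3 (0.80). For 4 of 5 cholangiocyte markers the sums were 151 to 228 in FRG-7dNTBC and 182 to 215 in FRG+NTBC livers, with Krt19 at -0.27, and for 6 of 7 lymphocyte markers they were 245 to 255 in FRG-7dNTBC and 261 to 281 in FRG+NTBC livers, with Cd3e at -0.16. Neither of these 2 lists had a gene that passed at its brightest probe set, while 1 of 2 probe sets of Epcam was higher and 1 of 5 of Cd8a lower, both named after their values were seen. Cd3g, Cd79a and Ncr1, also named after their values were seen, averaged 8.06, 24.9 and 10.3 in FRG-7dNTBC livers. In FRG+NTBC livers they averaged 9.04, 25.7 and 10.5, and all lay below the lowest array median of 33.1. At such values, in mice with Rag2 and Il2rg knocked out, the lymphocyte sums do not show a fall of lymphocytes. The lowest value in any of these marker lists was 7.67, in the lymphocyte list. The deposited values never reach 0 (lowest 3.84 over all probe sets), so they do not show which markers were detected. The part of these cells in the fall of the enzymes was not tested. In whole liver, fewer hepatocytes and less RNA per hepatocyte cannot be told apart.

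Across the arrays, the median intensity was 33.1 to 34.3 in FRG-7dNTBC and 35.3 to 36.5 in FRG+NTBC livers, and the correlation of log2 values over all probe sets was 0.980 to 0.993 within groups and 0.930 to 0.955 between them. The first principal component separated the groups and held 76.2% of the variance. The second held 10.7% and set FRG-7dNTBC replicates 2 and 3 at opposite ends. Set beside bright probe sets alone, 7 of the 9 had a mean log2 intensity of at least 10. Of these 7, 5 were lower, against 18.4% of all such probe sets, with a median log2 fold change of -0.84 beside 0.14 over all of them.

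Among genes around the pathway, some passed as higher and some as lower. Of all probe sets, 14.0% were higher and 13.9% lower. In lists this short, 1 gene is close to those shares, so the counts are description only. Tetrahydrobiopterin synthesis supplies the cofactor that Pcbd1 and Qdpr restore, and of its 5 genes measured (6 listed) 1 rose and none fell. That gene was Gch1 (GTP cyclohydrolase, the rate-limiting step), at 2998, 3795 and 2106 in FRG-7dNTBC livers, against 588, 891 and 923 in FRG+NTBC livers. The groups were far apart, with a log2 fold change of 1.88 (SE 0.25, limma adjusted p = 0.00125), although only 1 of the 2 probe sets of Gch1 passed. The median over the 5 genes was 0.36, and 2 rose without FRG-7dNTBC replicate 3. After scaling or quantile normalization, 1 rose and 1 fell.

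Among 8 relatives and side routes of the pathway, 2 genes rose and 1 fell, where 14.0% of all probe sets were higher and 13.9% lower. Mif, whose protein can act on phenylpyruvates in the test tube, rose by 0.82 in log2 (limma adjusted p = 0.0483). It did so at 1 of its 3 probe sets, and the groups overlapped there. Hpdl, a paralog of Hpd, rose by 0.76 (limma adjusted p = 0.00531) at a dim signal of 18.7 ± 2.36 in FRG-7dNTBC and 11.0 ± 0.85 in FRG+NTBC livers (SD, n = 3 each). Fahd2a, of the Fah domain family, fell by 1.28 (limma adjusted p = 0.000854) at 1 of its 5 probe sets. Got1, an aspartate aminotransferase, differed by 0.29 with overlap. Leaving out FRG-7dNTBC replicate 3 gave 5 genes that rose. Leaving out replicate 1 or 2 of that group, or FRG+NTBC replicate 2 or 3, gave 1, and Mif no longer passed. After scaling, 1 rose and 2 fell.

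Of 5 genes that use fumarate or acetoacetate, the end products of Fah, 1 rose and 3 fell. Over all probe sets, 14.0% were higher and 13.9% lower. Fh1 (fumarate hydratase) was 6562, 6081 and 5914 in FRG-7dNTBC livers and 2435.5, 1184 and 1278 in FRG+NTBC livers, a log2 fold change of 2.0 (limma adjusted p = 0.00104). All FRG-7dNTBC livers were above the highest FRG+NTBC liver, replicate 1. Aacs (acetoacetyl-CoA synthetase) changed by -1.13 and Acat1 (mitochondrial acetyl-CoA acetyltransferase) by -0.53, with limma adjusted p-values of 0.00203 and 0.0356. The third gene that fell was Bdh1, at -0.45 (limma adjusted p = 0.0453), named after its value was seen. The number that fell was 1 without FRG-7dNTBC replicate 2 or 3 or without FRG+NTBC replicate 1 or 2. With mice left out in turn, Acat1 kept its call only without FRG+NTBC replicate 3, and Bdh1 only without FRG-7dNTBC replicate 1. Lower were 2 of 3 probe sets each of Aacs and Acat1 and 1 of 2 of Bdh1.

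Liver transcription factors and partners known to act on genes of this kind were measured for 6 of 8 listed. None rose and 4 fell, where 14.0% of all probe sets were higher and 13.9% lower. The median log2 fold change of the 6 was -0.61. Onecut1 changed by -1.08 (limma adjusted p = 0.0313), Cebpa by -1.07 (0.00149) and Nr3c1, the glucocorticoid receptor, by -0.72 (0.0081). Hnf4a changed by -0.50 (0.0225), named after its value was seen. The number that fell was 2 without FRG-7dNTBC replicate 2 or without FRG+NTBC replicate 2 or 3. With mice left out in turn, Onecut1 kept its call only without FRG-7dNTBC replicate 1, and Hnf4a only without FRG-7dNTBC replicate 3 or FRG+NTBC replicate 1. Lower were 1 of 2 probe sets of Onecut1, 2 of 6 of Nr3c1 and 1 of 4 of Hnf4a, and Cebpa had 1.

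Enzymes that break down other amino acids give the nearest comparison, with 29 of 34 genes measured. In this list 14 genes fell, 2 rose and 13 did not pass, with a median log2 fold change of -0.55, where 6 of the 7 phenylalanine and tyrosine enzymes fell with a median of -1.02. Whether these shares differ was not tested, and of all probe sets 13.9% were lower and 14.0% higher. Both counts rest on the brightest probe set of each gene, and 5 of the 13 that did not pass (Tdo2, Aldh7a1, Auh, Ivd and Mccc1, named after their values were seen) had 1 or 2 other probe sets that were lower. The number that fell in the other list was 8 with ordinary variances, and 4 genes rose without FRG-7dNTBC replicate 3. The falls in the other list reached farther than Tat, to -3.38 for Amdhd1 and -2.71 for Hal, both of histidine breakdown, and -3.07 for Prodh, of proline breakdown. The 2 genes that rose were Gldc, the glycine decarboxylase, by 2.13 (limma adjusted p = 0.000145), and Hibch, of valine breakdown, by 0.67, both named after their values were seen. The plot of the lists shows each gene.

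**Figure D4:**
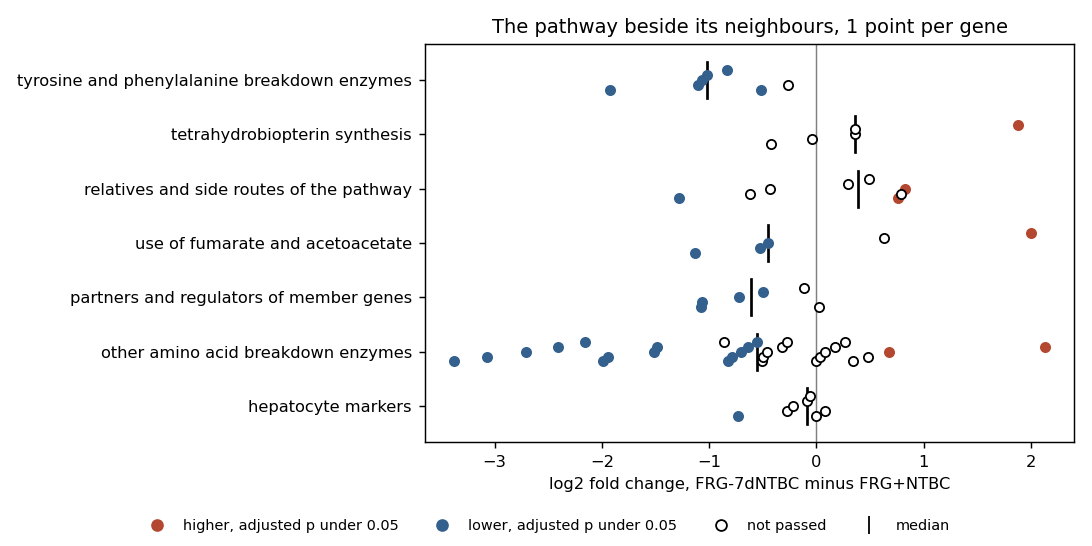
Log2 difference of FRG-7dNTBC from FRG+NTBC livers for each gene at its brightest probe set, for the 7 enzymes and 6 lists set beside them. Blue points were lower and red points higher at a limma adjusted p under 0.05, open points did not pass, and the black bar is the median of a list. The 7 enzymes lie between -1.92 and -0.26, and other amino acid breakdown enzymes lie between -3.38 and 2.13.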

How the data were processed

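Liver RNA of 6 FRG mice was hybridised to Affymetrix mouse genome arrays. The authors made the deposited intensity values with Robust Multiarray Analysis, and the values are linear. That method corrects for background, sets arrays to the same quantiles and combines probes through median polish. The medians of the 6 arrays still ran from 33.1 to 36.5, so the deposited values do not share quantiles, and why was not tested. The values match log2 values of 2 decimals within 0.01 intensity units, and log2 was taken here. Of 45037 probe sets, 34945 carry 1 symbol in the array annotation, 932 carry several and 9160 are unnamed there. No multi-symbol probe set held a member.

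The comparison used limma 3.58.1 under R 4.3.3, without covariates and with Benjamini-Hochberg adjustment over all probe sets, and was tested on simulated data. A gene in a list stands for its brightest probe set, by mean log2 over the 6 arrays. Named were all member probe sets, in each list the genes that passed with the 3 largest changes and its first gene, and the 3 genes most like each of Tat, Hpd and Fah. Other genes are named as chosen later. Members and lists were chosen with earlier results of these data known. Promoter sequence is from RefSeq (GRCm38.p6), and 1 further motif searched there is not reported here. Alternatives covered scaling, quantile normalization, dim probe sets, moderation, array weights, probe sets that can match several transcripts, a replicate block, an offset and each mouse left out. The number of arrays limits the precision. The labels call the mice biological replicates. Other analyses of the study, such as blood values, were not analysed here.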

Additional observations from a re-analysis of the deposited data

How the results depend on the processing

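The fall of Tat, Hgd (both probe sets) and Fah kept its direction and stayed below an adjusted p of 0.05 in limma under all 15 alternatives, with log2 fold changes of -2.10 to -1.59 for Tat, -0.97 to -0.70 and -1.36 to -1.08 for Hgd, and -1.24 to -0.86 for Fah. Hpd (-1.23 to -0.88), Gstz1 (-1.21 to -0.74) and Pcbd1 (-0.67 to -0.38) kept their direction and lost calls as given beside them. Of 134 values of single probe sets, 121 kept direction and call, 12 lost the call and 1 turned, the dimmer Qdpr probe set at 0.090 without FRG-7dNTBC replicate 3 (lowest -0.28 without FRG-7dNTBC replicate 2). Ordinary variances gave 4 lower probe sets of the 9, 6477 called of all and 3336 lower, against 7, 12546 and 6262. Scaling to one 75th percentile moved the median of all probe sets by -0.13 and gave 9669 lower and 5366 higher, 64.3% lower against 49.9%, with 7 of the 9 lower. Leaving out 1 mouse gave 5 to 7 lower of the 9, 8254 to 13215 called and 3864 to 6400 lower. For these the cause was not tested. Same-numbered mice of the 2 groups did not deviate together (correlations of 0.106, 0.034 and -0.156, and FRG-7dNTBC replicates 2 and 3 correlated best with another number), and the replicate block left 6 of the 9 lower and 11348 called. Outside the enzymes, small differences turned sign: Got1 was -0.14 without FRG-7dNTBC replicate 2 (0.84 without replicate 3), Alb -0.0467 and Rag2 -0.12 after scaling, Adgre1 0.24 without FRG-7dNTBC replicate 2 and 0.082 without FRG+NTBC replicate 3 (-0.35 without FRG-7dNTBC replicate 3), and Rag2 -0.02, -0.04 and -0.13 without FRG-7dNTBC replicate 1, FRG-7dNTBC replicate 2 and FRG+NTBC replicate 3 (highest 0.0967 without FRG+NTBC replicate 1). Among genes of the other lists, calls were also lost with ordinary variances (Mif 0.178, Acat1 0.0994, Bdh1 0.0894, Onecut1 0.153, Lrat 0.109), array weights (Acat1 0.0502, Onecut1 0.113), the replicate block (Bdh1 0.0934, Hnf4a 0.0563), an intensity trend (Bdh1 0.064), added 16 units (Mif 0.0867, Onecut1 0.0646), scaling (Mif 0.0644) or quantile normalization (Mif 0.0752), all limma adjusted p-values. Signal over background limits the dim probe sets: adding 16 units before the log2 gave -0.95 for Fah, -1.08 for the dimmer Hgd probe set and 0.36 for Hpdl.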

Other observations

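Among 34944 other probe sets with 1 gene symbol, those whose centred log2 values lay nearest to Tat over the 6 arrays were of Slc10a1 (a bile acid uptake carrier of hepatocytes, root mean square difference 0.08), Ppara (a fatty acid receptor, 0.12) and Rassf5 (0.13). Their log2 fold changes were -2.00, -1.90 and -1.86. Nearest to Hpd were S100a13, Ropn1l and Igfbp4, each at 0.07, and nearest to Fah were Shmt2 (mitochondrial serine hydroxymethyltransferase), Thra (a thyroid hormone receptor) and Tmcc1, each at 0.07. The 6 arrays form only 2 groups, and nothing about shared control is drawn from this likeness.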
